A study of Homo sapiens with 6 samples.

Results

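The Krüppel-like factors (KLF) are transcription factors with zinc fingers at the carboxyl end that bind GC-rich and CACCC sequences in gene promoters. They were followed in H1975 cells, a line of human non-small cell lung cancer (NSCLC) that carries mutated EGFR, before and after exposure to osimertinib (Osi), an EGFR tyrosine kinase inhibitor. The comparison addresses which members of the family changed in the cells that persist under the drug. Members were taken by gene symbol: KLF2, KLF3, KLF4, KLF5, KLF6, KLF7, KLF9, KLF10, KLF11 and KLF13, which gave 10 of the 27216 rows of the RNA-sequencing table. The 3 parental samples were H1975 cells of genotype WT at 0 h and the 3 adapted samples were the same line after 72 h of 1000 nM Osi, with apoptotic cells washed away before lysis. Some of the study's culture assays name this concentration, its list of compounds gives a lower one, and its RNA-sequencing methods name none. Both groups were grown in medium with 10% FBS (DMEM in the labels, another medium in the study's methods), and all 6 samples come from 1 line. The parental columns carry DMSO in their names, but the sources do not say if or how long the vehicle was applied, so that drug and time in culture cannot be told apart. The labels also describe digestion of the total RNA with RNase R, an enzyme that degrades linear RNA, before library preparation, and its part in the values was not tested.

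KLF proteins differ mainly in the amino end, which recruits cofactors. KLF3 binds the corepressor CtBP and represses transcription. KLF2, KLF4, KLF5, KLF6 and KLF7 bind acetyltransferases and act mostly as activators, while KLF9, KLF10, KLF11 and KLF13 bind the corepressor SIN3A. In epithelia, KLF4 is known for growth arrest and terminal differentiation and KLF5 for proliferation, and KLF10 and KLF11 were first described as early genes induced by TGF-beta.

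All 10 are protein-coding genes in the GRCh38 annotation of GENCODE v29. KLF4 (chr9:107484852-107490482, minus strand) and KLF9 (chr9:70384597-70414624, minus) share chromosome 9, and KLF7 (chr2:207074137-207167267, minus) and KLF11 (chr2:10042849-10054836, plus) share chromosome 2. KLF2 lies at chr19:16324817-16327874 (plus), KLF3 at chr4:38664196-38701042 (plus), KLF5 at chr13:73054976-73077542 (plus), KLF6 at chr10:3775996-3785281 (minus) and KLF13 at chr15:31326855-31435665 (plus). Antisense transcripts share exon bases with KLF3 (KLF3-AS1) and KLF11 (AC104794.4), and the values of these genes may hold reads of both strands since the strand setting of the counting is not stated.

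Promoter sequences of members with large falls (KLF4 and KLF9) and large rises (KLF11 and KLF13) are shown, among those with a RefSeq entry. They were picked by these changes. Binding of KLF proteins to them was not measured, and a link between their motifs and the changes was not tested. Each run is the 250 bases before a RefSeq transcription start in GRCh38.p14, written 5′ to 3′ on the strand of the gene, and capitals mark the GC box GGGCGG on either strand.
KLF4, chr9:107489770-107490019, minus strand: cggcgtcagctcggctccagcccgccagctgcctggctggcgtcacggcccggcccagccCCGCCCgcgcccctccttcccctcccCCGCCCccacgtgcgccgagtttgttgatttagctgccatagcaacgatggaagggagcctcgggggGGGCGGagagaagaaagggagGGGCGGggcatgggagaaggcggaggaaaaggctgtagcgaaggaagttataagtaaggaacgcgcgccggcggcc
KLF9, chr9:70414658-70414907, minus strand: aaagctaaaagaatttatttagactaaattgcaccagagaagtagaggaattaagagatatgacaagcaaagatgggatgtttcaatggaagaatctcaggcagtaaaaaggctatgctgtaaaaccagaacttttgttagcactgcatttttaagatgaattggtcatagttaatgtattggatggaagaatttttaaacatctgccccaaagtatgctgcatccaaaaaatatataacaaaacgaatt
KLF11, chr2:10043579-10043828, plus strand: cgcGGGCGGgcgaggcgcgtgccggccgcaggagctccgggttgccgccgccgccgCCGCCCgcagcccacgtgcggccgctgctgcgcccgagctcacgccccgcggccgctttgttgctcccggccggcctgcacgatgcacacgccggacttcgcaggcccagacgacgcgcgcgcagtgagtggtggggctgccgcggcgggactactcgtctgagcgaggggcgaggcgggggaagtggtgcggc
KLF11, second start, chr2:10043971-10044220, plus strand: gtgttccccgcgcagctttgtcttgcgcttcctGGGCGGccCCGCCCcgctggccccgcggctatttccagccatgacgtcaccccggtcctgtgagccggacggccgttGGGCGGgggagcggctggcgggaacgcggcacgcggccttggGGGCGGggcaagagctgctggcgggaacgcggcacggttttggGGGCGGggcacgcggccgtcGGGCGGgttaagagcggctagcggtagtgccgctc
KLF13, chr15:31326585-31326834, plus strand: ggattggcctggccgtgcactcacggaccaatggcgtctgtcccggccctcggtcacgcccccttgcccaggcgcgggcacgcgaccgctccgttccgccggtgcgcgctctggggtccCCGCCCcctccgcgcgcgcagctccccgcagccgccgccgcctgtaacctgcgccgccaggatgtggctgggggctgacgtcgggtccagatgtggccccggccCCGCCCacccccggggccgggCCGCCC

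The KLF4 run held 4 GC boxes, the KLF13 run 3, and the KLF11 runs 2 and 6, while the KLF9 run held 0. Over windows of 300 bases (250 before to 50 after the start), RefSeq entries were matched for 8 of the 10 members with 13 starts, all but KLF3 and KLF10. A GC box lay in at least 1 window of 7 of these 8 genes, all but KLF9, and in 8 of 13 windows, against 45.0% of the 35116 windows of all genes. The CACCC box, the other sequence that KLF proteins bind, was found in 7 of 13 windows (59.9% of all windows), those of KLF5, KLF7, KLF11 and KLF13. The letters TGACG, part of the site of cAMP-responsive factors, were found in 4 of 13 windows (24.6% of all windows), of KLF4, KLF5, KLF11 and KLF13. TGANTCA, bound by AP-1, was in no member's window (7.71% of all windows), TATAAA was in 1 window of KLF5 (11.5%) and a CArG box, the site of serum response factor, in 1 window of KLF7 (1.29%). All motifs were searched on both strands, and matches of different motifs may share bases. By base composition KLF9 stood apart from the others shown: its window had a GC content of 32.7%, against 69.0% for KLF4, 78.3% for KLF13, 77.3% and 75.3% for KLF11 and a median of 58.7% over all windows. Members not shown fell on both sides of that median. KLF5 had 40.7% and 71.3%, KLF7 43.0%, 56.7%, 70.0% and 42.7%, KLF2 80.7% and KLF6 70.7%.

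Values are given on the deposited log2 scale, taken as log2(FPKM + 1), where FPKM counts fragments scaled to transcript length and library size, and as FPKM where levels are compared between genes. Replicates of the parental group had a Pearson r of 0.997 with each other over all rows. Adapted replicate 1 stood slightly apart from the other 2 adapted samples (r = 0.991 with each, against 0.996 between them). It was also nearer to the parental samples (r = 0.972 to 0.973) than those 2 were (0.963 to 0.964). Epithelial markers were high in all 6 samples, with EPCAM between 7.30 and 7.62 and EGFR between 9.02 and 9.09 (log2 scale). Among 10 markers of blood, endothelial, stromal and liver cells, CD3E and ALB were at 0 in all samples and PTPRC was at 0 in the parental and at most 0.08 in the adapted samples. The summed FPKM of these 10 markers was 5.0 to 5.72 in parental and 8.48 to 12.29 in adapted cells, and 1 of them passed the filter on low values (COL1A1). The endothelial genes among them moved in opposite directions, PECAM1 from 1.28, 1.40 and 1.0 to 0.07, 0.09 and 0.11 and CDH5 from 0.19, 0.27 and 0.16 to 1.19, 2.08 and 1.87, and the part of other cell types in the results was not tested. Of the 7 epithelial markers, 1 was higher and 3 were lower in the fit described next (57.1% called, against 56.9% of all rows tested).

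Adapted cells showed a KLF family that moved in both directions. KLF4, KLF10, KLF9 and KLF3 were lower, KLF13, KLF11, KLF7 and KLF6 were higher, KLF5 did not pass the test, and KLF2 was too low to be tested. Of the 10 members, 9 had a mean of at least 1 over the 6 samples and entered the limma fit, each with both group means above 1. Of these, 8 had an adjusted p below 0.05 (Benjamini-Hochberg over all 12656 rows tested), 4 in each direction. Calls were common in the whole table: 56.9% of all rows tested were called, 30.7% higher and 26.2% lower in adapted cells. Parental and adapted values did not overlap for the same 8 members, as for 66.3% of all rows tested. The median log2 fold change of the 9 members was -0.06 and the median of its absolute size 0.50, against 0.03 and 0.31 over all rows. RNA was taken in bulk, for adapted samples after apoptotic cells were washed away. Loss of some cells, fewer cells that express a gene and less RNA per cell cannot be told apart.

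**Figure D1:**
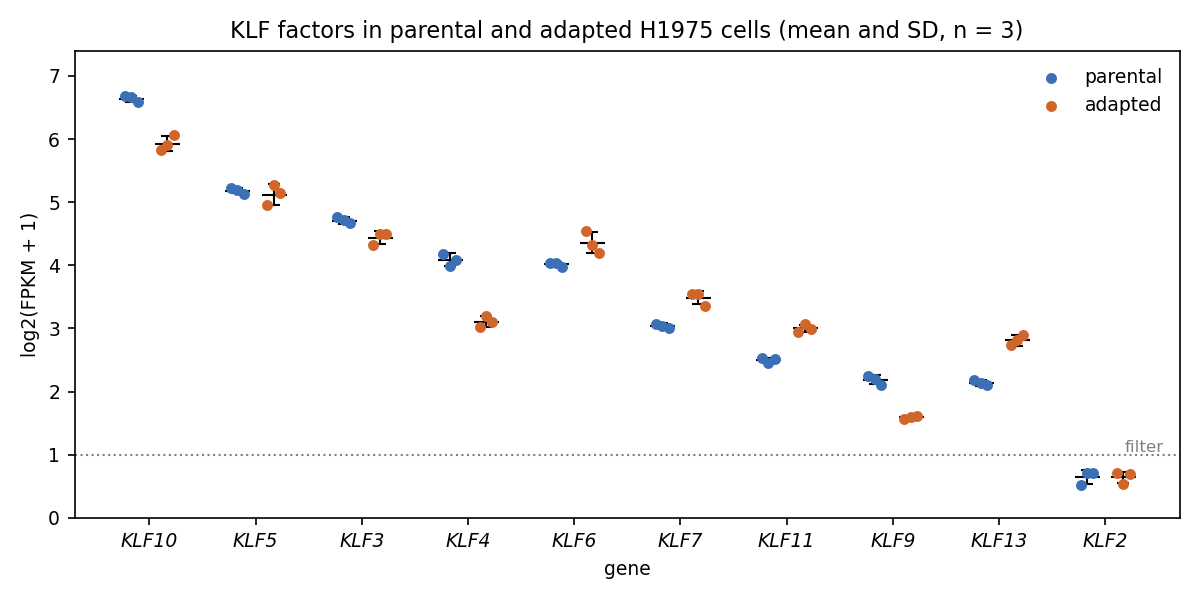
Log2(FPKM + 1) of each KLF factor (x axis) in the 3 parental (blue) and 3 adapted (orange) samples, with the mean and SD of each group and the filter at a mean of 1 as a dotted line. The adapted points lie below the parental ones for KLF10, KLF3, KLF4 and KLF9, above them for KLF6, KLF7, KLF11 and KLF13, and overlap them for KLF5 and KLF2.

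KLF4, a pluripotency factor that also promotes cell cycle exit in epithelia, fell most. Its values were 4.18, 3.99 and 4.09 in parental samples and 3.03, 3.20 and 3.10 in adapted samples on the log2 scale. Every adapted sample lay well below every parental one. The log2 fold change was -0.98 (SE 0.08, 95% confidence interval -1.16 to -0.80, limma adjusted p = 6.62e-05). In FPKM, KLF4 went from 17.2, 14.9 and 16.0 to 7.16, 8.18 and 7.58, so that the parental mean was 2.1 times the adapted mean. Of all rows tested, 89.0% had a smaller absolute change.

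KLF5, which drives proliferation of epithelial progenitors, did not follow KLF4. Parental samples had 5.22, 5.20 and 5.13 and adapted samples 4.95, 5.27 and 5.15. The 2 groups overlapped, with the lowest and the highest value both among the adapted samples. The difference of -0.06 (SE 0.09) missed the threshold (limma adjusted p = 0.599), and its interval ran from -0.27 to 0.15. Leaving out adapted replicate 1, the lowest of the 6, turned it to 0.03. Within each sample KLF4 lay below KLF5 by -1.03, -1.20 and -1.05 in parental and -1.92, -2.08 and -2.05 in adapted cells on the log2 scale, so the gap between this pair widened in all adapted samples. This gap is a description, since the pair was chosen for its roles with both results known.

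KLF6, a growth suppressor that induces CDKN1A, was higher in adapted cells by a small amount. It had 4.04, 4.04 and 3.98 in parental samples and 4.54, 4.33 and 4.20 in adapted samples. The adapted values were the more spread (SD 0.17 against 0.03), and the lowest of them still lay above the highest parental value. The log2 fold change was 0.33 (SE 0.09, interval 0.12 to 0.55, limma adjusted p = 0.0169), a mean FPKM ratio of 1.28. The call was lost without parental replicate 3 (0.31, adjusted p = 0.0621) and when all rows were fitted with no filter (0.33, adjusted p = 0.0584).

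KLF7, known for axon growth in neurons, rose as well. Parental values were 3.07, 3.04 and 3.0, and adapted values 3.55, 3.55 and 3.36. All adapted samples exceeded all parental samples, adapted replicate 3 by the least. KLF7 had a log2 fold change of 0.45 (SE 0.07, interval 0.27 to 0.62, limma adjusted p = 0.00187), and the adapted mean FPKM was 1.42 times the parental one.

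KLF2, the flow-induced factor of endothelial quiescence, was low in both groups. It had 0.52, 0.71 and 0.71 in parental and 0.71, 0.54 and 0.69 in adapted samples. The groups overlapped fully and shared a mean of 0.64. Fitted with no filter, the log2 difference had an interval of -0.20 to 0.20.

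KLF3, the CtBP-binding repressor of the set, was lower by a small amount. Parental samples had 4.76, 4.72 and 4.67, and adapted samples 4.32, 4.50 and 4.49. The ranges did not overlap, and adapted replicate 1 was the lowest. KLF3 had a log2 fold change of -0.28 (SE 0.07, interval -0.44 to -0.11, limma adjusted p = 0.0120), smaller than that of most members. Without parental replicate 1 the value was -0.25 and its adjusted p 0.0539.

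The 4 SIN3A-binding members split evenly. KLF10, the most abundant factor of the 10 in both groups, had 6.68, 6.66 and 6.59 in parental and 5.83, 5.90 and 6.06 in adapted samples. In FPKM these were 102, 100 and 95.2 against 55.7, 58.8 and 65.8. Every adapted sample was below every parental one, with a parental mean 1.65 times the adapted mean. The log2 fold change was -0.71 (SE 0.08, interval -0.89 to -0.54, limma adjusted p = 2.21e-04). KLF11, its closest relative and also inducible by TGF-beta, went the other way. It had 2.54, 2.46 and 2.52 in parental and 2.95, 3.07 and 2.99 in adapted samples, with no overlap and little spread in either group. The log2 fold change of KLF11 was 0.50 (SE 0.07, interval 0.34 to 0.66, limma adjusted p = 7.59e-04). Despite these opposite changes KLF10 remained far above KLF11: mean FPKM in adapted cells was 60.1 ± 5.19 for KLF10 and 7.01 for KLF11 (n = 3).

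KLF9, a factor induced by glucocorticoid and thyroid hormone in other tissues, fell. Its values were 2.24, 2.20 and 2.11 in parental and 1.57, 1.59 and 1.61 in adapted samples. The adapted samples lay within 0.04 of each other and below all parental ones. KLF9 had a log2 fold change of -0.60 (SE 0.08, interval -0.77 to -0.42, limma adjusted p = 5.1e-04). In FPKM its parental mean was 1.77 times its adapted mean. KLF13, which drives late CCL5 expression in T lymphocytes, rose by more than any other member. Parental samples had 2.19, 2.13 and 2.1 and adapted samples 2.74, 2.82 and 2.89, again with no overlap. For KLF13 the log2 fold change was 0.67 (SE 0.07, interval 0.50 to 0.85, limma adjusted p = 2.65e-04), with an adapted mean FPKM 1.77 times the parental mean. Within parental samples KLF13 and KLF9 were nearly level, with KLF13 minus KLF9 at -0.05, -0.07 and -0.02. In adapted samples the same difference was 1.17, 1.23 and 1.28, so KLF13 stood clearly above KLF9. CCL5 itself, a low gene that did not pass the filter, had 1.48, 1.34 and 1.38 in parental and 0.37, 0.45 and 0.42 in adapted samples.

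**Figure D2:**
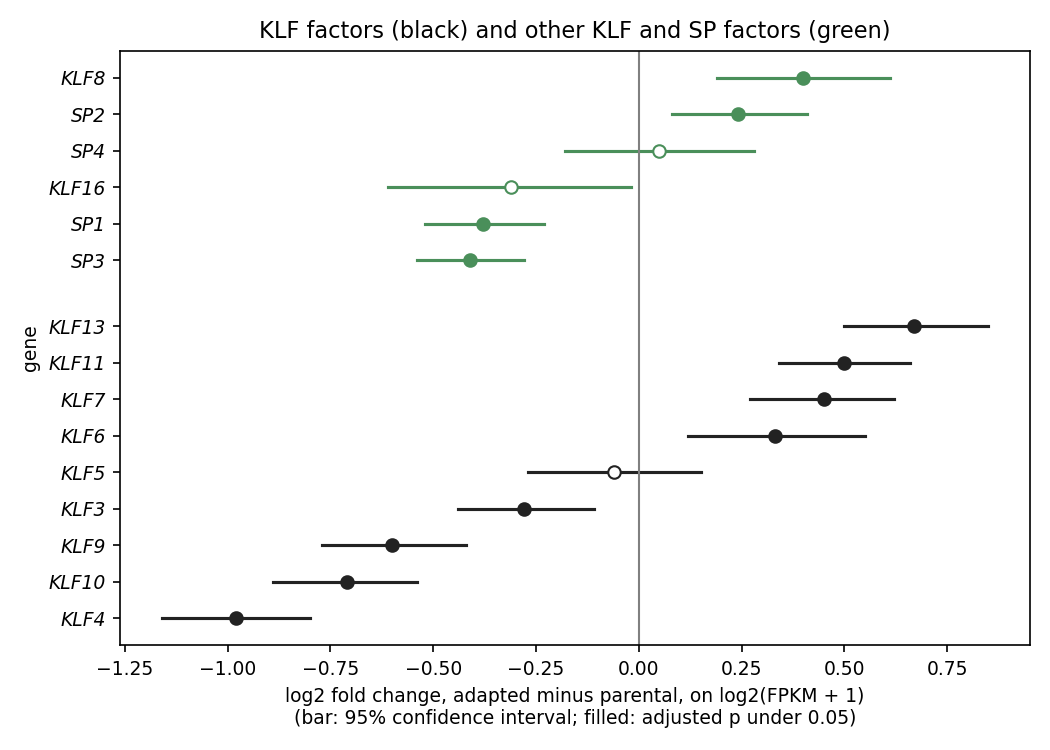
Log2 fold change of adapted against parental cells (x axis) with its 95% confidence interval for the 9 tested KLF factors (black) and the 6 other KLF and SP factors tested (green), filled where the adjusted p was below 0.05. The KLF factors run from -0.98 for KLF4 to 0.67 for KLF13, with 4 called on each side of 0 and KLF5 across it.

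With 3 samples a group, the exact permutation test of a single gene cannot go below p = 0.1 (two-sided), and each of the 8 members whose groups did not overlap had that value, so their calls rest on the limma fit. Set among all rows tested, the changes of the members were of ordinary to fairly large size. KLF4 exceeded 89.0% of rows in absolute change, KLF10 81.0%, KLF13 79.3%, KLF9 75.4%, KLF11 69.2% and KLF7 65.0%. KLF6 (52.7%) and KLF3 (45.6%) lay near the middle and KLF5 (10.5%) near the bottom. By level, KLF10 lay above 94.8% of tested rows, KLF5 above 85.0% and KLF3 above 76.1%, while KLF13 (27.6%) and KLF9 (16.7%) were among the lower rows.

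The order of the members by level changed in the middle of the list. In parental cells it was KLF10, KLF5, KLF3, KLF4, KLF6, KLF7, KLF11, KLF9, KLF13 and KLF2 from high to low. KLF4 and KLF6, and KLF9 and KLF13, were neighbours whose samples overlapped, and the other neighbours did not overlap. In adapted cells the order was KLF10, KLF5, KLF3, KLF6, KLF7, KLF4, KLF11, KLF13, KLF9 and KLF2. Here KLF3 and KLF6, and KLF4 and KLF11, overlapped. KLF4 thus went from level with KLF6 (KLF6 minus KLF4 of -0.07 ± 0.10, SD, n = 3) to below KLF7 and 1.25 ± 0.23 below KLF6.

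Summed over the 10 members, KLF transcripts fell from 217, 211 and 203 FPKM in parental samples to 160, 172 and 172 in adapted samples. The ranges did not overlap, and most of the difference was KLF10. Without KLF10 the sums were 115, 111 and 108 against 104, 113 and 106, which overlap. Members that bind acetyltransferases (KLF2, KLF4, KLF5, KLF6 and KLF7) summed to 74.4 ± 2.07 in parental and 72.0 ± 3.62 FPKM in adapted cells (SD, n = 3). This near-level sum held a fall of KLF4 and rises of KLF6 and KLF7. The SIN3A-binding members summed to 111 ± 3.81 and 75.2 ± 5.65. Within this sum, mean FPKM fell for KLF10 (99.1 to 60.1) and KLF9 (3.55 to 2.01). It rose for KLF11 (4.67 to 7.01) and KLF13 (3.41 to 6.04). KLF10 made up 47.1% ± 0.346 of the family total in parental and 35.8% ± 2.16 in adapted cells. The share of KLF4 went from 7.62% to 4.55%, while that of KLF6 went from 7.25% to 11.7% and that of KLF7 from 3.43% to 6.10%. KLF11 went from 2.22% to 4.18% of the total and KLF13 from 1.62% to 3.60%. These are shares of a total that fell, mostly through KLF10, so a share can rise without a rise in level. The share of KLF5, which was not called, went from 16.8% to 20.2%. KLF3 was lower in adapted cells, yet its mean share did not fall.

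**Figure D3:**
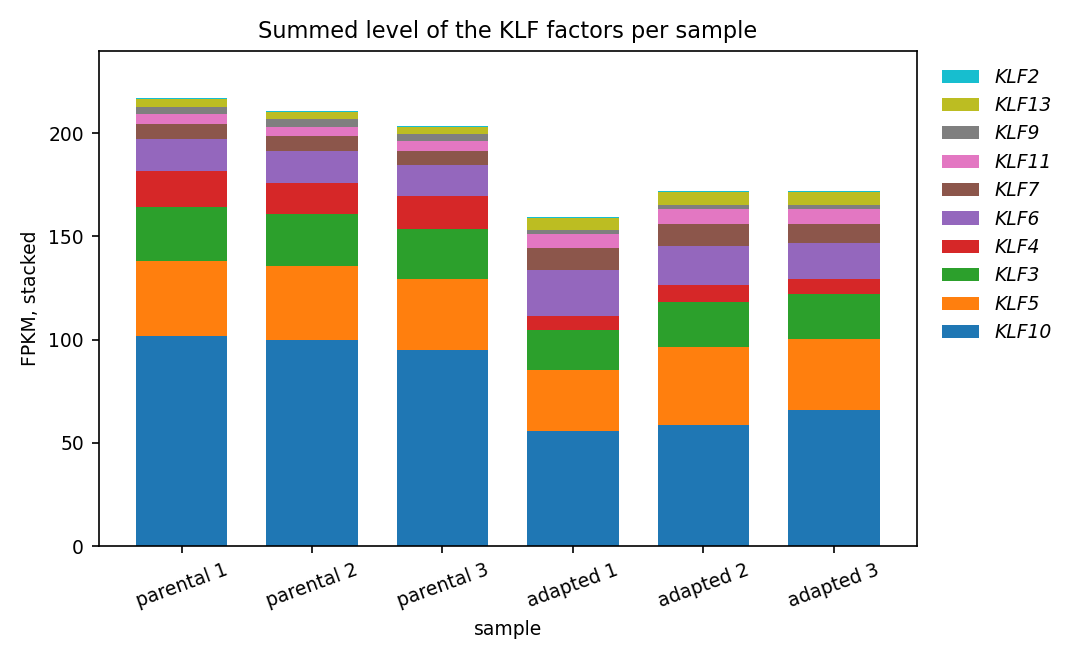
Stacked FPKM (y axis) of the 10 KLF factors in each of the 6 samples (x axis). The total falls from between 203 and 217 in parental to between 160 and 172 in adapted samples, and the lowest block, KLF10, shortens most.

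The untranslated 3′ ends of the members, longer than the median of 984 bases in 8 of 10, carried the pentamer ATTTA, the core of AU-rich elements that shorten the life of many early-gene mRNAs. Every member had at least 2 copies in the transcript with the longest coding sequence in GENCODE v29 (forward strand), from 2 in KLF4 to 20 in KLF7, against a median of 2 over 11602 tested rows with a transcript. Per kilobase of 3′ UTR the count ran from 0.893 in KLF13 to 3.56 in KLF2, with 9 of 10 members above the median of 1.55. The values of the members that fell lay between those of the members that rose. Of those that fell, KLF3 had 2.12 per kilobase, KLF4 and KLF10 both had 2.22 and KLF9 had 2.52. Of those that rose, KLF13 (0.893) and KLF6 (1.69) lay below these values and KLF11 (2.58) and KLF7 (2.83) above them. A match is a run of letters in the annotation and not a measured element.

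The remaining family, 16 further KLF and SP genes, was mostly low: 10 did not pass the filter, among them KLF1, KLF15 and KLF17 at 0 in all samples. Of the 6 tested, 2 were higher and 2 lower (66.7% called, against 56.9% of all rows tested). KLF8, a CtBP-binding relative of KLF3, had 1.26, 1.38 and 1.40 in parental and 1.64, 1.82 and 1.77 in adapted samples (log2 fold change 0.40, limma adjusted p = 0.00738). It thus rose where KLF3 fell. SP1 and SP3, the ubiquitous factors that share the GC box with KLF proteins, fell by 0.38 and 0.41 on the log2 scale (adjusted p = 0.00183 and 6.54e-04). SP2 was higher by 0.24 (adjusted p = 0.0206, lost without parental replicate 1 at 0.0789 or 2 at 0.0901). KLF16, a SIN3A-binding relative of KLF9, had a value of -0.31 that missed the threshold (adjusted p = 0.0646) and passed it without adapted replicate 1 (-0.45, adjusted p = 0.00105). SP4 was at 0.05 (adjusted p = 0.679).

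Cofactors that KLF proteins recruit were all expressed, and 3 of 12 were higher and 5 lower, with a median log2 fold change of -0.08. Their share called was 66.7%, against 56.9% of all rows tested (median 0.03). SIN3A, the scaffold bound by KLF9, KLF10, KLF11 and KLF13, had 3.99, 4.02 and 3.92 in parental and 3.66, 3.72 and 3.72 in adapted samples (-0.28, limma adjusted p = 0.00590). Its paralog SIN3B was higher by 0.20 (adjusted p = 0.0217), a call that was lost without the first or second parental sample (0.0953 and 0.0794) or adapted replicate 2 (0.0538). CTBP2, bound by KLF3, had 4.69, 4.80 and 4.53 in parental and 4.19, 4.33 and 3.94 in adapted samples (-0.52, adjusted p = 0.00698), while CTBP1 was at 0.12 (adjusted p = 0.0909, and 0.0407 with no filter). The histone deacetylases moved apart. HDAC1 fell by 0.60 (adjusted p = 0.00185) and HDAC2 was higher by 0.84 with widely spread adapted values of 4.10, 4.86 and 3.82 (adjusted p = 0.0188, 0.0504 to 0.0538 without any 1 parental replicate and 0.0979 with no filter). Without adapted replicate 2, the highest, the value of HDAC2 was 0.54. Of the acetyltransferases, CREBBP rose by 0.54 (adjusted p = 0.00488), KAT2B fell by 0.34 (adjusted p = 0.0132, lost without parental replicate 2 at 0.0593 or 3 at 0.0538) and EP300 was at 0.09 (adjusted p = 0.295). In all, 5 cofactors were called without parental replicate 2.

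Ubiquitin ligases reported to act on KLF proteins gave 1 higher and 3 lower of 7 tested, with a median of -0.13. At 57.1% called, they were level with the 56.9% of all rows tested (median 0.03). SMURF2, which targets KLF5, rose from 4.88, 4.78 and 5.03 to 5.49, 5.38 and 5.48 (0.55, limma adjusted p = 8.55e-04). ITCH fell by 0.53 (adjusted p = 0.00186), SMURF1 by 0.28 (adjusted p = 0.00419) and VHL, reported to degrade KLF4, by 0.41 (adjusted p = 0.00315). WWP1, which degrades KLF5 and KLF2, was at -0.04 (adjusted p = 0.642) and FBXW7 at -0.13 (adjusted p = 0.229). These are transcript levels, and KLF protein was not measured in these files.

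Pathways known to induce KLF genes were set beside the members. The kinase ERK5 (MAPK7) and the MEF2 factors induce KLF2 and KLF4 in endothelium. Of 7 tested genes of this axis 1 was higher and 0 lower, with a median of 0.22. That is 14.3% called, against 56.9% of all rows tested (median 0.03). MAPK7 had 3.01, 2.83 and 2.94 in parental and 3.31, 3.10 and 3.28 in adapted samples (0.31, limma adjusted p = 0.0185), and it missed the threshold when parental replicate 2 (0.0786) or 3 (0.0541) or adapted replicate 3 (0.0534) was left out. MEF2D was at 0.29 (adjusted p = 0.0527), and without adapted replicate 1 (0.0281) or 2 (0.0474) it passed. The list thus held 0 to 3 calls depending on the library left out. KLF4 was lower and KLF2 level beside these values.

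TGF-beta induces KLF10 and KLF11 through SMAD proteins. Of 11 tested genes of this axis 6 were higher and 2 lower (72.7% called), with a median of 0.46. Over all rows tested, 56.9% were called, 30.7% higher and 26.2% lower, with a median of 0.03. Of the 6, 1 passed the filter only through its adapted values. The ligand TGFB2 rose from 2.84, 2.88 and 2.75 to 5.69, 6.0 and 6.08 (3.10, limma adjusted p = 2.18e-06). The receptor TGFBR2 rose by 0.88 (adjusted p = 0.00149) and the inhibitor SMAD7, repressed by KLF10 and KLF11, by 0.63 (adjusted p = 0.00108). SMAD3, the signal carrier, fell by 0.65 (adjusted p = 0.00134). TGFB1 was lower by 0.28 (adjusted p = 0.0377), a call that was lost with no filter (0.0991) and without any of 4 libraries, the 3 parental replicates (0.0875 to 0.110) and adapted replicate 2, where the value was -0.18 (0.0562). KLF11 rose and KLF10 fell beside these values.

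Glucocorticoid induces KLF9, and of 9 tested genes of the receptor and its targets 2 were higher and 5 lower, with a median of -0.80. Calls made up 77.8% of this list, against 56.9% of all rows tested (median 0.03). PER1, like KLF9 a direct receptor target, had 3.26, 3.30 and 3.38 in parental and 1.58, 1.70 and 1.66 in adapted samples (-1.67, limma adjusted p = 5.38e-06). ERRFI1, an inhibitor of EGFR that also responds to EGFR signalling, fell by 2.16 (adjusted p = 2.76e-06) and CEBPD by 1.77 (adjusted p = 1.66e-05). The phosphatase DUSP1 rose by 0.57 (adjusted p = 2.15e-04). TSC22D3 was higher by 0.19 (adjusted p = 0.0494) and was lost without any 1 parental replicate (0.102 to 0.147) or adapted replicate 2 (0.106), among other settings. The receptor gene NR3C1 itself was at 0.09 (adjusted p = 0.373). Several of these genes have other inducers, and no hormone treatment is described in the labels.

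Genes reported elsewhere as targets of KLF proteins moved both ways, 7 higher and 8 lower of 19 tested, with a median of -0.31. Of these targets 78.9% were called, against 56.9% of all rows tested (median 0.03). SPRR2A, a cornified envelope gene activated by KLF4, went from 3.40, 3.37 and 3.35 to 0.51, 0.11 and 0.12. It passed the filter only through its parental values, so nothing is read from its place among the 8 lower genes. The mitotic kinase gene CDK1 fell by 2.50 (limma adjusted p = 8.04e-05). KRT4, a keratin of stratified epithelium, went from 1.75, 1.68 and 1.66 to 2.89, 4.86 and 4.89 (2.51, adjusted p = 0.00398), with adapted replicate 1 well below the other two. TXNIP, an inhibitor of glucose uptake, rose by 1.81 (adjusted p = 2.17e-04) and COL1A1, a collagen gene, by 1.12 (adjusted p = 7.8e-05). CDKN1A, induced by KLF4 and KLF6, was at -0.02 (adjusted p = 0.938), with adapted replicate 1 lowest (2.81, 3.52 and 3.45 against 3.30, 3.30 and 3.23), and it was higher by 0.21 without that library (adjusted p = 0.0175). CCND1, a G1 cyclin gene repressed by KLF4, was at -0.31 (adjusted p = 0.103) and fell by 0.47 without adapted replicate 1 (adjusted p = 8.62e-04). These genes have many regulators, and which KLF protein acts on them in H1975 cells was not measured.

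**Figure D4:**
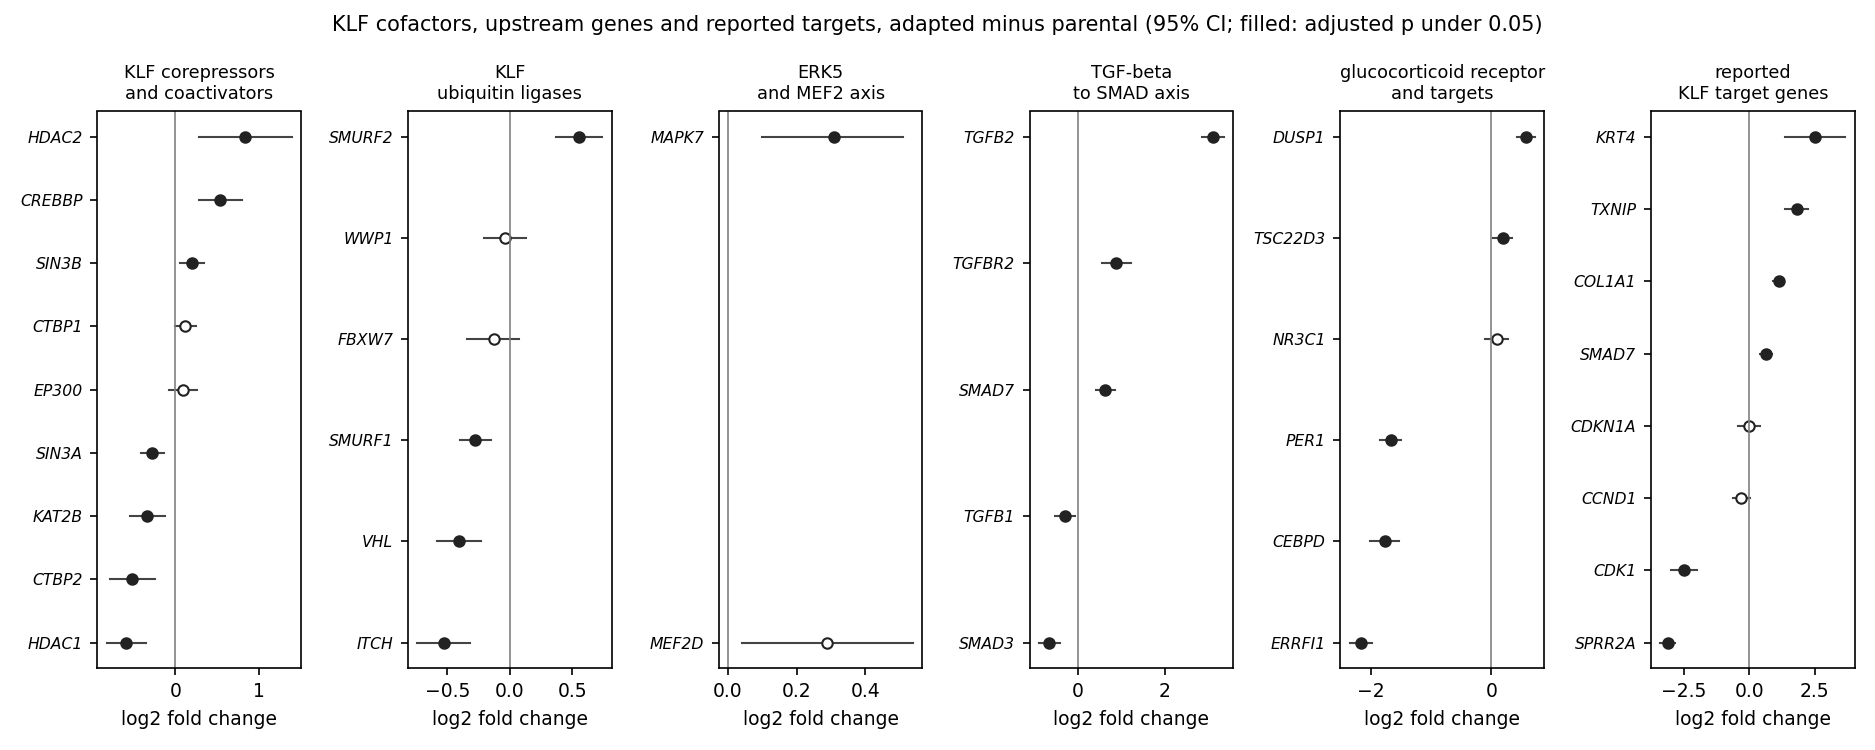
Log2 fold change of adapted against parental cells (x axis of each panel, own scale) with its 95% confidence interval for the cofactors, ubiquitin ligases, upstream genes and reported targets named in the text, filled where the adjusted p was below 0.05. Higher and lower genes occur in 5 of the 6 panels, and the ERK5 and MEF2 panel holds 1 called gene.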

How the data were processed

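RNA-sequencing of 3 parental and 3 adapted H1975 samples was read from 1 deposited table of log2 values. The authors deposited no unit name. Values returned to a 6-decimal grid after 2 to the power of the value minus 1 in 27069 of 27216 rows, and were taken as log2(FPKM + 1). The 147 other rows hold no gene named here. The submitters' processing notes list hg38, Bowtie2 2.1.0, STAR and edgeR, and the quantifier and annotation are not given in the sources used here. Columns were matched to samples by group and replicate number. Read depth is unknown, so no counting error is given, and p-values measure only the spread between these samples, which may be technical. The study's methods speak of independent experiments in general, and the labels do not say whether these 6 samples came from separate cultures.

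Rows with a mean of at least 1 (12656) were fitted with limma 3.58.1 in R 4.3.3 (lmFit, eBayes with an intensity trend, unpaired, two-sided) and adjusted by Benjamini-Hochberg, with calls at an adjusted p below 0.05. The study's own test needs counts, so limma took its place. The fit was tested on simulated data. A fold change on this log2(FPKM + 1) scale understates changes of low genes. The members and gene lists were chosen with earlier results of these data known. Named were all members, other KLF and SP genes, and in each list up to 3 genes that rose and 3 that fell most, with key upstream genes. SIN3A, CTBP1, EP300, WWP1, FBXW7, CCL5, MEF2A, LGALS1 and CDH1 were added after their values were seen. Some list genes enter the counts and are not reported here by name. SMAD7, COL1A1 and KRT19 are in more than 1 list. RefSeq promoter windows (GRCh38.p14) and GENCODE v29 3′ UTRs were searched by exact match. Alternatives changed the pseudocount (0.1), filter, scaling, variance model, pairing, unnamed or off-grid rows, and each sample in turn.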

Additional observations from a re-analysis of the deposited data

How the results depend on the processing

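Over 18 alternatives (another pseudocount, no filter or a stricter one, 3 scalings, 2 variance models, the replicate block, unnamed or off-grid rows, and each sample left out), KLF4, KLF7, KLF9, KLF10, KLF11 and KLF13 kept their direction and call in each alternative that tested them. KLF4 ranged from -1.06 to -0.93 and KLF13 from 0.63 to 0.81. KLF3 and KLF6 lost their calls in the settings named in the report. With a stricter filter (mean of at least 3) 5 of 6 tested members were called, 2 of them higher, with 4532 calls over all rows (main 7202), 2 among other KLF and SP factors, 5 in the TGF-beta list, 8 among reported targets and 0 among markers of other cell types. With no filter, 7 of 16 other KLF and SP factors and 4 of 10 markers of other cell types were called, with 8016 calls over 27216 rows. The factors called then include KLF12, at 0.01 or less on the log2 scale in all samples. The ERK5 list had 2 calls without a variance trend and 3 with the replicate block.

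Leaving out 1 sample at a time gave 7 to 8 called members (3 to 4 higher, 3 to 4 lower) and 5763 to 8370 calls over all rows, the fewest without parental replicate 2 and the most without adapted replicate 1. It gave 3 to 5 calls among other KLF and SP factors, 5 to 8 among cofactors, 4 to 4 among ligases, 0 to 3 in the ERK5 list, 6 to 10 in the TGF-beta list, 6 to 7 in the glucocorticoid list, 14 to 19 among targets, 3 to 5 among epithelial markers and 1 to 1 among other markers. Signs turned for KLF5 (0.03 without adapted replicate 1, range with 1 sample left out -0.13 to 0.03), SP4 (-0.02 without adapted replicate 2, range -0.02 to 0.12), MEF2A (-0.05 without adapted replicate 2, range -0.05 to 0.14), CDKN1A (0.21 without adapted replicate 1, range -0.15 to 0.21), LGALS1 (-0.01 with median centring, -0.03 without parental replicate 1, -0.43 without adapted replicate 1, range -0.43 to 0.26) and CDH1 (-0.01 with median centring, -0.09 without adapted replicate 2 or 3, range -0.09 to 0.20). Except where samples were left out, the cause was not tested.

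Samples with the same replicate number did not deviate together (correlations of -0.0509, -0.0309 and -0.0203), so the numbers were not taken to pair them. With the replicate block 8 members and 6761 rows were called, against 8 and 7202 without it. Over all rows the median log2 fold change was 0.028, and 0.005 to 0.037 under the other scalings. Unknown depth limits the low genes, KLF2 among them.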
